A study of Sus scrofa with 41 samples.

Results

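The genes described here are the ubiquitin-conjugating enzymes, the UBR proteins and the ubiquitin-specific proteases of pig skeletal muscle. They were taken as all genes in the deposited count tables whose pig Ensembl symbol starts with UBE2, with UBR and a digit, or with USP and a digit. The rule found 82 of the 25880 genes: 29 UBE2 genes, 6 UBR genes and 47 USP genes. Expression was measured by RNA sequencing of polyA RNA from the psoas major, a muscle of the loin, in 41 uncastrated boars of 2 breeds, with 1 library per pig. All pigs were purebred, came from 1 breeding station, were raised there up to a common weight limit and received no experimental treatment. The 13 Danbred Duroc boars were 131 to 156 days old (median 148), and the 28 Danbred Landrace boars were 147 to 166 days old (median 154.5). The feed conversion ratio (FCR) ran from 1.83 to 2.18 in the Duroc (median 1.94) and from 1.92 to 2.25 in the Landrace pigs (median 2.1). It is read here as feed per growth, as its name says and as values above 1 require, although the methods of the study word it as growth over feed. The RNA integrity number (RIN), which grades how little the RNA of a sample was degraded, ran from 7 to 8.8 in the Duroc (median 8.2) and from 6.5 to 8.3 in the Landrace pigs (median 8).

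Ubiquitin is a small protein that cells attach to other proteins. An activating enzyme (E1) passes it to a conjugating enzyme (E2), and a ligase (E3) brings the E2 to the target, so that chains of ubiquitin often send the target to the proteasome. The UBE2 genes encode E2 enzymes, and some of them carry relatives of ubiquitin instead: UBE2M carries NEDD8 and UBE2L6 carries ISG15, while UBE2V1 and UBE2V2 lack the catalytic cysteine and work as partners of another E2. UBR proteins share the UBR box, and UBR1, UBR2 and UBR4 are ligases that read unstable protein ends. USP proteases remove ubiquitin again, and in muscle this cycle sets much of the rate at which contractile proteins are broken down. USP39, a splicing factor without protease activity, and USP6NL, a GTPase-activating protein for RAB proteins, carry the letters USP without being active proteases.

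Each pig had between 22188911 and 25954816 counts on genes (median 25243577), and the 7 tested genes of a list of skeletal muscle markers together held 112857 to 198688 CPM (each gene's share of a library's counts, with the libraries scaled by TMM factors) in each library, so that the labelled tissue was met. The pigs fell into 5 batches, which the labels number without saying what they are: 1, 3, 2, 3 and 4 Duroc pigs were in batches 1 to 5, and 12, 7, 2 and 7 Landrace pigs in batches 2 to 5. Each gene's counts were modelled with edgeR on FCR, RIN, age, breed and batch together. A gene is said to be called, to rise or to fall where its false discovery rate (FDR), adjusted over all 11146 genes tested, was under 0.1. A breed coefficient is the log2 difference Landrace minus Duroc at equal FCR, RIN, age and batch, and the only pig of batch 1 was absorbed by its own batch term. All tests used separate animals as replicates. In whole muscle, fewer cells of a type and less RNA per cell cannot be told apart.

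Of the 82 genes, 77 passed the filter on low counts: all 29 UBE2 genes, all 6 UBR genes and 42 of the 47 USP genes. The other 5 were not tested. USP21 had no count in 38 pigs, USP50 in 37, USP44 in 29, USP51 in 25 and USP49 in 1 pig. USP49, a histone H2B protease, was the best covered of them, with a median of 0.104 CPM in the Duroc and 0.112 CPM in the Landrace pigs. No member was at 0 in every pig. The spread between pigs, as the coefficient of variation of CPM over all 41, was 8.68 to 51.2% for the 77 tested members with a median of 17.7%, against a median of 24.3% for all genes tested. USP4 had the smallest value, at 14.7 to 23.8 CPM. USP18, the protease that removes ISG15, had the largest spread of them, with 0.630, 1.09 and 2.22 CPM as lowest, median and highest value in the Duroc and 0.222, 1.03 and 3.61 CPM in the Landrace pigs. Both the lowest and the highest pig for USP18 were Landrace pigs. CPM is not scaled for transcript length, so the levels of different members are not ranked against each other.

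Between the breeds, more members were called higher in Landrace than lower with TMM scaling, and fewer with library size only (2 higher and 16 lower). At equal RIN, age, FCR and batch, 20 of the 77 members were higher and 6 were lower in the Landrace pigs (edgeR, FDR under 0.1). Members were called in 33.8% of cases, beside 33.1% of all genes, and the members' split was 26.0% higher and 7.79% lower, beside 15.6% and 17.5% of all genes. The median breed coefficient of the members was 0.07 on the log2 scale, and that of all genes was -0.0024. By class, 8 of 29 UBE2 genes, 2 of 6 UBR genes and 10 of 42 USP genes were higher, and 1 UBE2 gene and 5 USP genes were lower. The plot of shares called shows these percentages for each term of the model.

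**Figure D1:**
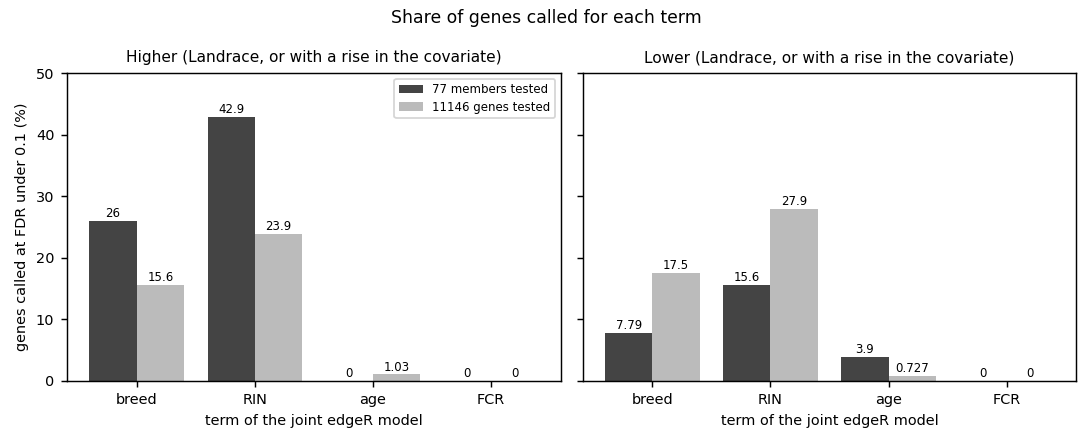
Share of genes called by edgeR at FDR under 0.1 for breed (Landrace against Duroc), RIN, age and FCR, with higher or rising genes on the left and lower or falling genes on the right. Dark bars are the 77 tested members and light bars all 11146 tested genes: for breed 26.0 against 15.6% were higher, and for RIN 42.9 against 23.9% rose.

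Among the E2 enzymes, those higher in Landrace included close relatives of the UBE2D class, which serve many different ligases. UBE2D3 (ENSSSCG00000035622, Sscrofa11.1 chromosome 8 from 118218224 to 118229002) had 151, 239 and 323 CPM as lowest, median and highest value in the Duroc pigs and 185, 254 and 288 CPM in the Landrace pigs. The Landrace values lay wholly within the range of the Duroc pigs. At equal covariates UBE2D3 was higher by 0.31 on the log2 scale (SE 0.0714, 1.24-fold, edgeR FDR 0.00208). UBE2D2 (0.21) and UBE2D4 (0.32) were also higher, the latter at the edge of the threshold (edgeR FDR 0.0999), whereas UBE2D1 had a coefficient of -0.03 (edgeR FDR 0.902). UBE2A, a partner of the ligase RAD18 in DNA damage tolerance, was higher by 0.23 (SE 0.0628, edgeR FDR 0.00611), with 26.3 to 40.9 CPM in the Duroc and 25.9 to 39.1 CPM in the Landrace pigs. Its near twin UBE2B, an E2 studied in wasting muscle, had a coefficient of 0.18 that missed the threshold (edgeR FDR 0.233). The other E2 genes that were higher were UBE2E1 (0.29), UBE2Q2 (0.36), UBE2R2 (0.20) and UBE2L6 (0.51). UBE2L6, the E2 of ISG15, had 4.67, 5.63 and 9.93 CPM in the Duroc and 3.67, 8.32 and 14.8 CPM in the Landrace pigs. Of the 28 Landrace pigs, 6 lay above every Duroc pig for UBE2L6 and 1 lay below. UBE2QL1 was the only E2 gene called lower, by -0.50 (SE 0.159, edgeR FDR 0.0200), and 13 of 28 Landrace pigs lay below every Duroc pig while 3 lay above.

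Of the UBR ligases, UBR1 and UBR3 were higher in Landrace. UBR1 (ENSSSCG00000004717, chromosome 1 from 128319311 to 128474330), a ligase of the N-end rule pathway, had 12.6, 23.3 and 32.0 CPM in the Duroc and 14.4, 26.5 and 37.8 CPM in the Landrace pigs. The groups overlapped widely, and 5 Landrace pigs exceeded every Duroc pig. The adjusted difference was 0.47 (SE 0.120, edgeR FDR 0.00411), whereas the plain ratio of the breed means was 0.13 on the log2 scale. UBR3 was higher by 0.19 (SE 0.0793, edgeR FDR 0.0758). The coefficients of UBR2, UBR4 and UBR7 did not pass the threshold.

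Among the proteases, USP14 (ENSSSCG00000022559, chromosome 6 from 106087921 to 106139717), which trims ubiquitin chains on the proteasome, had the smallest p of all members for breed. It had 4.75, 15.7 and 21.7 CPM in the Duroc and 7.85, 19.0 and 22.4 CPM in the Landrace pigs. The medians differed while the ranges largely overlapped. The adjusted difference was 0.61 (SE 0.120, 1.53-fold, edgeR FDR 0.000386), and it had the same sign in all 4 batches that held both breeds, with differences in mean log2 CPM of 0.38, 0.19, 0.14 and 0.55. The columns summed over strands held 351% of this count of USP14, and with them its breed difference was 0.39. USP25 (ENSSSCG00000024623), a protease with a muscle isoform, was higher by 0.55 (SE 0.130, edgeR FDR 0.00223), with 73.0, 137 and 188 CPM in the Duroc and 76.0, 166 and 242 CPM in the Landrace pigs. For USP25, 6 Landrace pigs lay above all Duroc pigs, and the sign was the same in 3 of 4 batches. USP48, which acts on histone H2A and on NF-kB signalling, separated the breeds most plainly in the plot of CPM by breed. It had 12.2, 13.6 and 14.6 CPM in the Duroc and 12.2, 15.1 and 17.4 CPM in the Landrace pigs, and 19 of the 28 Landrace pigs lay above every Duroc pig. Its adjusted difference was 0.27 (SE 0.0641, edgeR FDR 0.00244). USP9X, which stabilises many signalling proteins, was higher by 0.25 (SE 0.0695, edgeR FDR 0.00841), and 12 Landrace pigs exceeded every Duroc pig. The other proteases that were higher were USP28 (0.37), USP24 (0.32), USP12 (0.21), USP19 (0.19), USP38 (0.19) and USP47 (0.15), of which USP19 is known from atrophying muscle.

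The 6 members lower in Landrace were UBE2QL1, USP11, USP31, USP54, USP5 and USP6NL. USP6NL (ENSSSCG00000011120, chromosome 10 from 60193505 to 60398399) had the most negative coefficient of the members, -0.78 (SE 0.17, 0.582-fold, edgeR FDR 0.00108). It had 1.08, 2.00 and 2.61 CPM in the Duroc and 0.702, 1.47 and 2.54 CPM in the Landrace pigs, and 3 Landrace pigs fell below all Duroc pigs. Its sign was the same in all 4 batches, as it was for USP31, USP54 and UBE2QL1. USP11, a protease of the DNA damage response, was lower by -0.34 (SE 0.0799, edgeR FDR 0.00243), at 24.4, 28.5 and 37.2 CPM in the Duroc and 17.5, 25.8 and 35.5 CPM in the Landrace pigs. For USP11, 7 Landrace pigs lay below all Duroc pigs. USP31 (-0.55, edgeR FDR 0.00320) and USP54 (-0.46, edgeR FDR 0.0569) are little studied. USP5, which takes apart free ubiquitin chains, was lower by -0.24 (SE 0.0981, edgeR FDR 0.0732), with the same sign in 2 of 4 batches.

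Several members differed in the plain values without being called. USP13, a relative of USP5 that acts on proteins of the endoplasmic reticulum, had 158, 221 and 260 CPM in the Duroc and 84.0, 169 and 374 CPM in the Landrace pigs. The Landrace pigs spread on both sides, with 12 below and 4 above every Duroc pig. Its coefficient was -0.35 (SE 0.192, edgeR FDR 0.180). UBE2E3 had 28.0, 34.5 and 51.9 CPM in the Duroc and 22.3, 41.2 and 86.4 CPM in the Landrace pigs, with 5 Landrace pigs above the Duroc range and 2 below it, and a coefficient of 0.39 (SE 0.192, edgeR FDR 0.138). USP33 had 9 Landrace pigs above every Duroc pig and a coefficient of 0.21 (SE 0.179, edgeR FDR 0.409). Of the members known from cell division, UBE2C, which starts chains for the anaphase-promoting complex, had 0.742, 1.27 and 2.76 CPM in the Duroc and 0.538, 1.15 and 3.14 CPM in the Landrace pigs. These ranges were nearly the same, and neither UBE2C (-0.47, SE 0.288), UBE2T (-0.02, SE 0.169), UBE2S (0.01, SE 0.107) nor USP1 (-0.17) passed the threshold for breed.

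**Figure D2:**
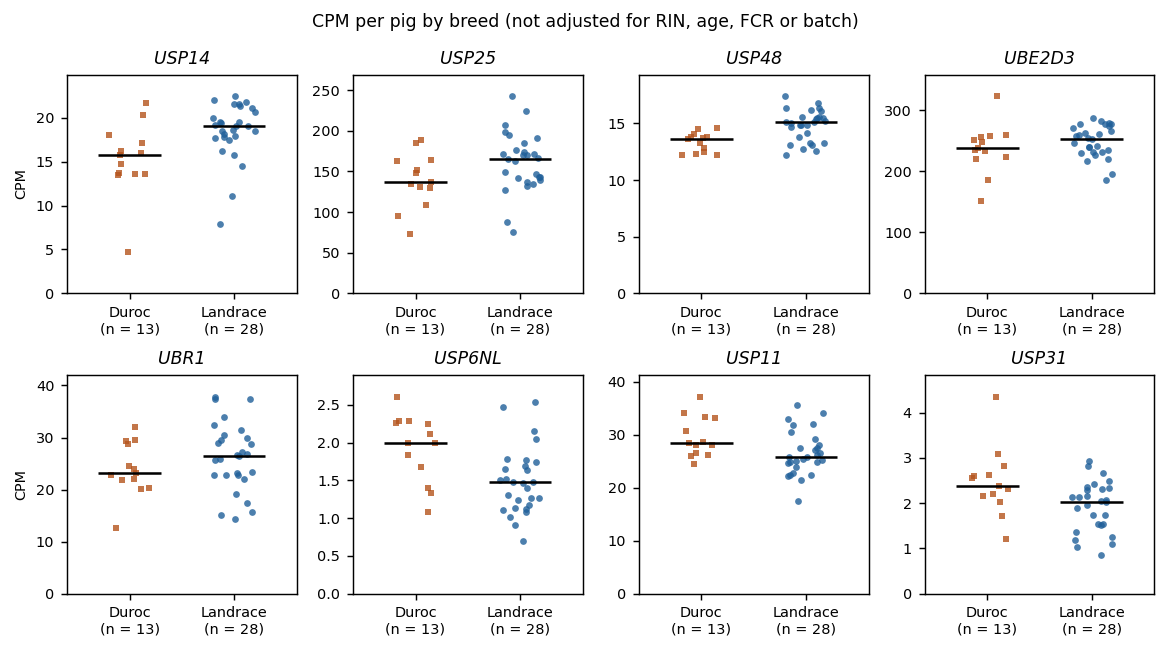
CPM of 8 members in each pig, with 13 Duroc pigs (squares) and 28 Landrace pigs (circles), a black bar at the breed median, and axes that start at 0; values are not adjusted. The first 5 panels are members higher in Landrace and the last 3 are members lower in Landrace: the ranges overlap in every panel, and for USP48 19 Landrace pigs lie above the highest Duroc pig at 14.6 CPM.

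The ranges of the breeds overlapped for each of the 26 called members, and several calls rested on the adjustment for the other covariates. For USP28 and UBE2Q2 the plain ratio of breed means had the other sign (-0.13 and -0.0045 on the log2 scale). The medians of UBE2Q2, however, were 39.0 CPM in the Duroc and 43.7 CPM in the Landrace pigs, with highest values of 83.6 and 56.1 CPM. Its sign was that of the coefficient in all 4 batches with both breeds. Within the 4 batches with both breeds, 9 of the 20 higher members had the same sign in all 4, 9 in 3, and USP24 and USP28 in 2. Without RIN in the model 15 members were called (19.5%, beside 32.4% of all genes), and without age 19 (24.7% beside 27.9%), while without the 2 pigs with RIN below 7 it was 25 (32.5% beside 32.8%). Leaving out the TMM factors, so that counts were scaled by library size only, moved the median breed coefficient of all genes to -0.18 and the members' calls to 2 higher and 16 lower, beside 4.79 and 32.3% of all genes. Relative to the median of all genes, the members' median was 0.074 with TMM and 0.082 with library size only, and 50 and 49 of the 77 members lay above it. Of the 26 calls, 8 were made in each of the 11 alternatives other than library size: UBE2A, UBE2L6, USP14, USP25 and USP48 higher, and UBE2QL1, USP31 and USP6NL lower.

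RNA quality moved with more members than any other covariate. With each unit of RIN, 33 of the 77 members rose and 12 fell (edgeR, FDR under 0.1). That was 58.4% of the members beside 51.8% of all genes, with 42.9% rising beside 23.9% and 15.6% falling beside 27.9%. The classes differed in their counts: all 6 UBR genes rose, 19 USP genes rose and 5 fell, and 8 UBE2 genes rose and 7 fell. The median RIN coefficient was 0.49 for the UBR genes, 0.14 for the USP genes and -0.02 for the UBE2 genes, against -0.010 for all genes. Because members called for RIN were more numerous than for any other term, the pigs with RIN of at most 7.4 (6 pigs, 1 of them Duroc) and of at least 8.3 (12 pigs) are set side by side below as a description. Of the 6 pigs of low RIN, 5 were in batch 5 and 1 in batch 2, while the 12 of high RIN were in batches 1 to 4. Those 12 included 1, 1, 1 and 3 Duroc pigs in batches 1 to 4. RIN, batch and breed thus cannot be told apart in these unadjusted groups. The coefficients beside them come from the model with batch and breed as terms.

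The UBR genes rose together. UBR1 had 12.6, 16.5 and 22.8 CPM as lowest, median and highest value in the pigs of low RIN and 23.98, 29.1 and 37.8 CPM in those of high RIN, so that the groups did not overlap. Its coefficient was 0.60 per RIN unit (SE 0.0939, edgeR FDR 4.2e-06). UBR2, a ligase raised in muscle wasting, rose by 0.56 (SE 0.0767, edgeR FDR 5.5e-07), from a median of 28.2 to 50.1 CPM, and 11 of the 12 pigs of high RIN lay above all of low RIN. UBR3 (0.42), UBR7 (0.36) and UBR4 (0.18) rose as well. The 6 UBR slopes were positive in each of the 3 batches in which a slope was taken, which for UBR2 were 0.54, 0.51 and 0.56 log2 CPM per unit.

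Among the USP proteases that rose, USP34, USP14, USP24, USP30 and USP25 had coefficients above 0.55. USP24, a large protease of the DNA damage response, had 36.3, 80.4 and 128 CPM at low and 104, 122 and 149 CPM at high RIN. The overlap came from the pigs of low RIN, which covered a wide range. It rose by 0.63 (SE 0.107, edgeR FDR 1.4e-05). USP34, which acts in Wnt signalling, rose by 0.70 (SE 0.123, edgeR FDR 1.9e-05; 0.31 in counts summed over strands) and USP25 by 0.56 (SE 0.104, edgeR FDR 4.7e-05). USP30, which removes ubiquitin from mitochondria and so restrains their clearance, rose by 0.59 (SE 0.116, edgeR FDR 8.2e-05). USP28, a relative of USP25, rose by 0.47, from a median of 150 to 274 CPM. USP14 rose by 0.64 in these counts, but not in the counts that keep pairs on overlapping genes, as given below. Smaller rises were those of USP38 (0.30), USP37 (0.36), USP9X (0.25), USP15 (0.25), USP47 (0.22), USP39 (0.19), USP19 (0.14) and USP22 (0.14), the last a subunit of the SAGA complex. USP31, USP39, USP47 and USP54 had no overlap between the pigs of low and high RIN, with each pig of high RIN above each of low RIN. USP31 and USP54, both lower in Landrace, had RIN coefficients of 0.30 and 0.44 in the model.

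The 8 E2 genes that rose were UBE2D4 (0.42), UBE2Q2 (0.36), UBE2D3 (0.29), UBE2H (0.23), UBE2V1 (0.22), UBE2NL (0.21), UBE2A (0.16) and UBE2K (0.12). UBE2Q2 had 20.3, 31.5 and 37.3 CPM at low and 32.2, 46.3 and 83.6 CPM at high RIN, and 11 of the 12 pigs of high RIN lay above all of low RIN. UBE2D3 had 151, 206 and 264 CPM at low and 220, 259 and 323 CPM at high RIN, and UBE2K, which builds ubiquitin chains, had 21.7, 23.4 and 24.9 CPM against 24.1, 26.8 and 35.2 CPM. For UBE2K 10 of the 12 pigs of high RIN lay above all of low RIN, and for UBE2D3 5 did.

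The 12 members that fell were UBE2J2, UBE2L6, UBE2M, UBE2Q1, UBE2QL1, UBE2S, UBE2V2, USP2, USP5, USP8, USP11 and USP16. UBE2M, the E2 of NEDD8, had 83.0, 88.9 and 102 CPM at low and 48.8, 61.3 and 79.4 CPM at high RIN. All 12 pigs of high RIN lay below all 6 of low RIN for UBE2M, and the same was so for UBE2Q1. UBE2M fell by 0.37 on the log2 scale (SE 0.0701, edgeR FDR 5.6e-05). UBE2J2, an E2 of the endoplasmic reticulum, fell by 0.45 (SE 0.0892, edgeR FDR 0.000108), from a median of 31.9 to 20.3 CPM. UBE2S, which extends chains for the anaphase-promoting complex, fell by 0.37 (SE 0.0794, edgeR FDR 0.000261) and UBE2L6 by 0.45 (SE 0.128, edgeR FDR 0.00434). Of the proteases, USP11 fell by 0.33 (SE 0.0605, edgeR FDR 4.0e-05), USP16, which acts on histone H2A, by 0.32 (SE 0.0643, edgeR FDR 0.000120) and USP2, which is under control of the circadian clock, by 0.38 (SE 0.109, edgeR FDR 0.00435). The median of USP2 was 275 CPM at low and 180 CPM at high RIN. In total, 7 of the 77 members (9.09%) had no overlap between these groups of pigs, beside 6.89% of all genes tested. Of these 7, 5 were higher and 2 lower at high RIN, which was 6.49 and 2.60% of the members beside 2.36 and 4.53% of all genes.

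**Figure D3:**
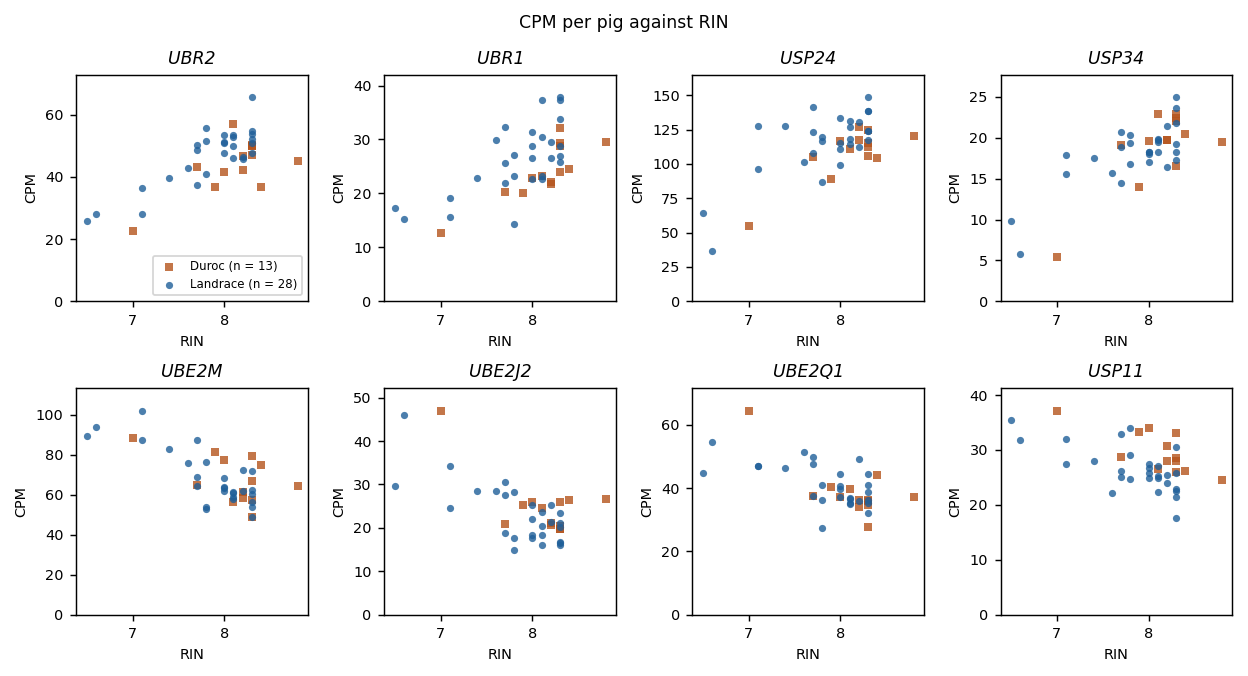
CPM of 8 members in each of the 41 pigs against RIN, with Duroc pigs as squares and Landrace pigs as circles; the CPM axes start at 0. The upper row shows members that rose with RIN and the lower row members that fell: UBR1 runs from 12.6 CPM in a pig of low RIN to 37.8 CPM in a pig of high RIN, and UBE2M from 102 down to 48.8 CPM.

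A small number of pigs of low RIN carried part of these counts. Without the 2 pigs with RIN below 7, 33 members were called for RIN (23 rising, 10 falling), beside 35.6% of all genes. In the 28 Landrace pigs alone 40 were called (51.9%, beside 42.9% of all genes). In the 13 Duroc pigs alone edgeR called 0 of 75 members and no gene of any kind. Of these 75, 17 (22.7%) had an unadjusted p under 0.05 in edgeR, beside 17.4% of all genes. The members' median RIN coefficient was 0.128 in the Duroc fit and 0.123 in the fit of all 41 pigs, beside 0.049 and -0.010 for all genes. Over all 41 pigs, 45 members and 51.5% of all genes had an unadjusted p under 0.05 for RIN. Within batches 2, 3 and 5, 25 of the 33 rising members had a positive slope in all 3 and the other 8 in 2, and 10 of the 12 falling members had a negative slope in all 3. With library size only, the median RIN coefficient of all genes moved to 0.30, and 57 members were called as rising and 0 as falling, beside 55.8 and 7.91% of all genes, while the members' median relative to that of all genes was 0.133 under both scalings. The direction of UBE2Q1, UBE2QL1, UBE2V2, USP5 and USP8 flipped to positive under that scaling. Apart from library size and the Duroc fit, 26 of the 45 calls were made in each of the 11 other alternatives, and these included all 6 UBR genes.

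Most of the members higher in Landrace were also called as rising with RIN. Of the 20 higher members, 16 (80%) rose with RIN and 1, UBE2L6, fell, whereas of the 1737 genes of any kind higher in Landrace 33.4% rose and 27.9% fell; UBE2D2, UBE2E1 and UBE2R2 were not called for RIN. Of the 6 lower members, UBE2QL1, USP11 and USP5 fell with RIN, USP31 and USP54 rose, and USP6NL was not called; of all 1955 lower genes 25.6% fell and 14.9% rose. The 28 members called for neither included UBE2B, UBE2C, USP1, USP7, USP10 and USP13. Both coefficients come from the same pigs and the same fit, and the median RIN was lower in the Landrace pigs, so their joint pattern is given as a count only.

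**Figure D4:**
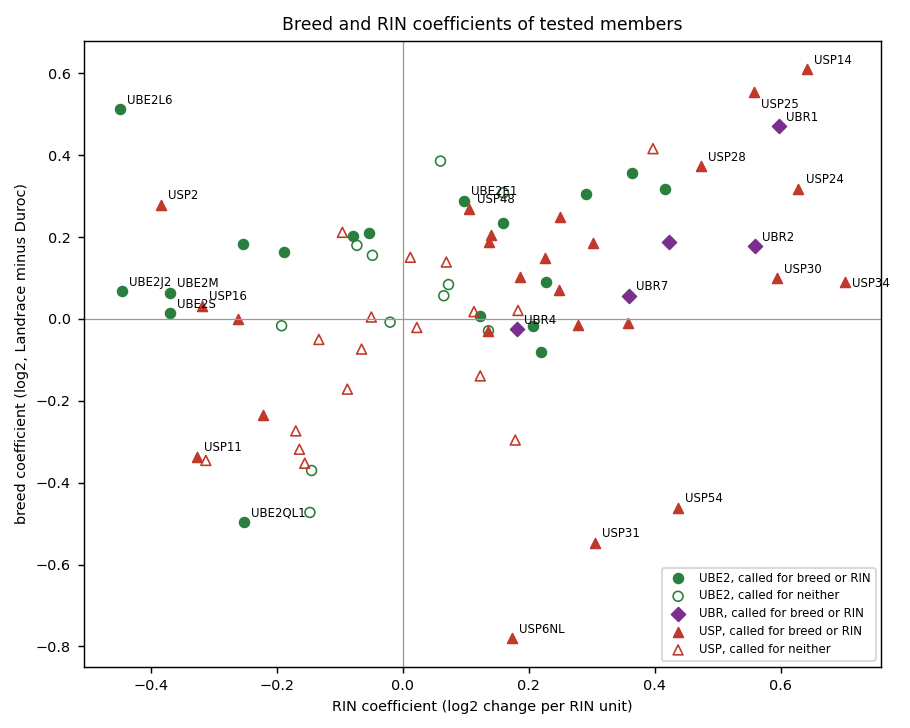
Breed coefficient (log2, Landrace minus Duroc) against RIN coefficient (log2 change per RIN unit) for 76 of the 77 tested members; shape and colour give the class, and filled symbols were called for breed or RIN by edgeR. The UBR genes shown all lie to the right of 0, the upper right holds USP14 at 0.64 and 0.61 (-0.05 and 0.39 in counts summed over strands), and UBE2L6 lies at the upper left, at -0.45 and 0.51.

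Close relatives among the members did not always share a direction, though the differences between relatives were not tested. With RIN, UBE2V1 rose by 0.22 while UBE2V2 fell by 0.19, and UBE2Q2 rose by 0.36 while UBE2Q1 fell by 0.25. With library size only, UBE2V2 and UBE2Q1 had positive coefficients, 0.13 (edgeR FDR 0.0606) and 0.0605, so these opposite directions hold under TMM scaling and not under that one. Of the related proteases USP4, USP11 and USP15, USP15 rose by 0.25, USP11 fell by 0.33 and USP4 had a coefficient of 0.07 that missed the threshold. USP25 and USP28 moved alike in both terms, with breed coefficients of 0.55 and 0.37 and RIN coefficients of 0.56 and 0.47. UBE2J2 fell with RIN while its relative at the endoplasmic reticulum, UBE2J1, had a coefficient of -0.05 (edgeR FDR 0.535). USP54 and its relative USP53 had breed coefficients of -0.46 and -0.32, of which only that of USP54 was called.

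With age, 3 members fell and none rose (edgeR, FDR under 0.1), which was 3.90% of the members beside 1.76% of all genes, where 1.03% rose and 0.727% fell. UBE2E1 (ENSSSCG00000026488), an E2 of the UBE2E class, changed by -0.25 per 10 days (SE 0.0565, edgeR FDR 0.0392). Its lowest, median and highest values were 28.4, 33.5 and 49.4 CPM in the 11 pigs of at most 148 days and 27.9, 32.6 and 37.5 CPM in the 9 pigs of at least 158 days. Of the 11 young pigs, 4 lay above every old pig, and the others lay within the range of the old pigs. USP28 changed by -0.37 (SE 0.101, edgeR FDR 0.0762), with 160, 254 and 339 CPM in the young and 111, 180 and 201 CPM in the old pigs. USP7, which stabilises MDM2 and through it acts on p53, changed by -0.21 (SE 0.0558, edgeR FDR 0.0768), with 76.3, 92.1 and 106 CPM in the young and 78.1, 83.6 and 102 CPM in the old pigs. At an unadjusted p under 0.05 in edgeR there were 16 of the 77 members (20.8%), beside 16% of all genes. Coefficients were above 0 for 24 of the 77 members, beside 48.6% of all genes, but for 41 members with library size only. Relative to the median of all genes, 27 members lay above it with TMM scaling and 26 with library size only. No member was called for age in the Landrace pigs alone, in the Duroc pigs alone or with library size only, where 7 (9.09%), 4 (5.33%) and 8 (10.4%) members had an unadjusted p under 0.05 in edgeR, beside 11.2, 3.50 and 14.4% of all genes; DESeq2 called 6 members, beside 5.06% of all genes, and limma 4, beside 2.52%, the 3 above among them. Age and breed were linked in this design, since 8 of these 11 young pigs were Duroc and none of the 9 old pigs was, as the plot of CPM against age shows. Batch differed as well: 5 of the 9 old and 0 of the 11 young pigs were in batch 5, which held 5 of the 6 pigs of low RIN. Age, breed, batch and RIN thus cannot be told apart in these unadjusted groups.

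For FCR, the trait the study was designed around, no member was called by edgeR, DESeq2 or limma, nor in any other fit, and edgeR called 0% of all genes. At an unadjusted p under 0.05 edgeR had 9 members, DESeq2 9 and limma 7; for edgeR this was 11.7% of the members beside 8.68% of all genes, and DESeq2 had 9.09% and limma 8.82% of all genes. That count depended on the model: over the other fits of all 41 pigs it ran from 3 without RIN, beside 4.12% of all genes, to 32 with library size only, beside 18.9%. USP31 had the smallest p, with 0.14 per 0.1 of FCR (SE 0.0513, 95% interval 0.04 to 0.24, edgeR unadjusted p = 0.00926, FDR 0.529). It had 1.20, 2.38 and 4.35 CPM in the Duroc and 0.864, 2.04 and 2.92 CPM in the Landrace pigs. Among the other members with the smallest p were, on the positive side, USP42 (0.09), USP27X (0.21) and USP38 (0.07), and on the negative side UBE2D2 (-0.07), UBE2M (-0.07), USP43, UBE2S and USP19. All of these had an edgeR FDR above 0.5.

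**Figure D5:**
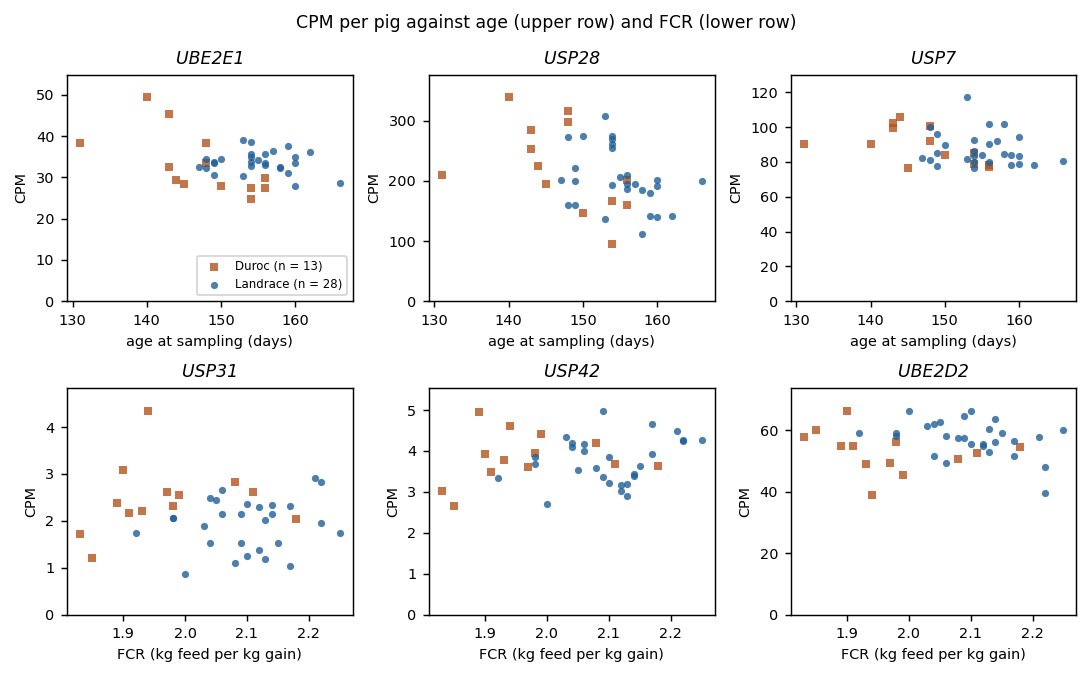
CPM in each pig against age at sampling for the 3 members called for age (upper row) and against FCR for USP31, USP42 and UBE2D2, which had the smallest p for FCR (lower row); Duroc pigs are squares, Landrace pigs circles, and CPM axes start at 0. In the upper row the highest UBE2E1 and USP28 values, 49.4 and 339 CPM, belong to young Duroc pigs; in the lower row the values spread over the whole range of FCR.

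The slopes were not shown to differ between the breeds. For the FCR by breed term edgeR called 0 members and 0% of all genes, and at an unadjusted p under 0.05 it had 2 members and 5.22% of all genes, while DESeq2 had 3 members, beside 5.55% of all genes, and limma 2, beside 5.20%. These 2 were USP18, with -0.71 per 0.1 of FCR for the Landrace slope minus the Duroc slope (SE 0.216, edgeR unadjusted p = 0.00240, FDR 0.922), and USP25 with 0.20 (FDR 0.922). For the RIN by breed term edgeR also called 0 members and 0% of all genes, with 3 members (USP14, USP9X and UBE2Q1) and 4.85% of all genes at an unadjusted p under 0.05, where DESeq2 had 5 members, beside 5.28% of all genes, and limma 2, beside 4.10%. Without the 2 Landrace pigs with RIN below 7, however, 3 members were called, as were 123 of the 11150 genes tested. They were UBE2E3 (-0.95 per RIN unit, SE 0.255, FDR 0.0906), USP14 (-0.73, SE 0.193, FDR 0.0865) and USP34 (-0.84, SE 0.235, FDR 0.0969), each with a lower slope in the Landrace pigs (edgeR). In that fit the Duroc slope leans on 1 pig of RIN 7.

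Counting without strand leaves out read pairs that fall on overlapping genes. For 8 of the 77 tested members the sum of the columns counted by strand, which keeps such pairs where the genes lie on opposite strands, exceeded the unstranded count by more than 10%. It was 437% of the unstranded count for UBE2Z, 351% for USP14, 203% for USP42, 200% for USP34, 177% for USP30, 160% for USP43, 142% for UBE2O and 118% for UBE2E1. The RefSeq span of USP14 overlaps THOC1, that of USP30 overlaps ALKBH2 and that of USP34 overlaps AHSA2. The spans of UBE2Z, USP42, USP43 and UBE2O overlapped 0 RefSeq genes, so no partner was found for them, and UBE2E1 was not looked up for want of a position. With the summed columns the breed difference of USP14 was 0.39 (edgeR FDR 0.000158), but its RIN coefficient was -0.05 (edgeR FDR 0.447) instead of 0.64. USP34 and USP30 still rose with RIN, by 0.31 and 0.48 (edgeR FDR 0.000103 and 7.3e-06). UBE2Z, not called in the unstranded counts, fell with RIN by 0.29 (edgeR FDR 4.0e-05) in the summed columns. USP42, also not called in the unstranded counts, was called there for RIN (-0.20, edgeR FDR 0.0421) and for breed (-0.28, edgeR FDR 0.0453). Since the summed columns can also hold pairs of a partner on the other strand, neither count isolates these members.

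Around these genes, other parts of the ubiquitin system were counted from fixed lists. Of 8 tested E1 genes, 4 were higher in Landrace, among them SAE1, UBA3 and NAE1, and none lower, and UBA1, the main E1 of ubiquitin, had a breed coefficient of -0.0031. Of 6 tested ubiquitin-like modifiers, 3 were higher, among them SUMO2 and NEDD8, and none lower. Of 33 tested genes listed as deubiquitinases outside the USP class, 12 were higher and none lower, among them UCHL5 (0.32) and ZRANB1 (0.36). Under library size only, these 3 lists counted 0 higher and 1 lower, 1 and 1, and 2 and 5. With RIN, 3 of the E1 genes rose and 2 fell, 3 of the modifiers fell and none rose, and 8 of the other deubiquitinases rose and 7 fell. Of 6 tested cofactors of deubiquitinases 4 rose and 1 fell, and both tested ubiquitin precursor genes fell. Under library size only these 5 lists counted, for RIN, 6 rising and 0 falling, 3 and 2, 24 and 2, 5 and 1, and 0 and 0. NEDD8 fell by 0.50 with RIN and its E2, UBE2M, by 0.37. Under library size only NEDD8 still fell, by 0.18 (edgeR FDR 0.0215), and UBE2M had a coefficient of -0.0623 (edgeR FDR 0.404). The ubiquitin gene UBB fell by 0.22, but its coefficient was 0.0975 (edgeR FDR 0.247) under library size only. RPS27A, a ribosomal gene that also encodes ubiquitin, was listed at 0 in every pig. Of 6 tested E2 genes whose symbols fall outside the rule, 2 were higher in Landrace and none lower (1 and 1 under library size only), and with RIN 2 rose and 2 fell (4 and 0 under library size only). One of them, CDC34, was higher in Landrace by 0.38 and fell with RIN by 0.37, with a RIN coefficient of -0.0652 (edgeR FDR 0.372) under library size only. Read beside the background of 15.6% higher, 23.9% rising and 27.9% falling, the counts of these short lists are descriptions.

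Markers of muscle and of other cells were counted in the same way, to be read beside 15.6% of all genes higher and 17.5% lower for breed, and 23.9% rising and 27.9% falling for RIN. All 6 tested endothelial markers were lower in Landrace, also with library size only, with summed levels of 66.0 to 185 CPM in the Duroc and 36.2 to 159 CPM in the Landrace pigs. Of the other lists, 3 of 5 satellite cell markers, 3 of 5 proliferation markers, 2 of 7 fibroblast markers, 2 of 4 adipocyte markers, 2 of 6 slow fibre markers, 1 of 13 leukocyte markers and 1 of 13 interferon-stimulated genes were lower. With library size only these counts were 4, 3, 3, 2, 6, 2 and 4. Of the 7 tested skeletal muscle markers, 4 were higher in Landrace (1 with library size only) and none lower, and with RIN 4 rose and 1 fell (6 and 0 with library size only). The counts of other markers higher in Landrace were 5 of 6 for fast fibres, 1 for satellite cells and 1 for interferon-stimulated genes under each scaling, and for proliferation 1 with TMM scaling and 0 with library size only. The erythroid markers had no call for breed. With RIN, 4 of 7 fibroblast markers rose (5 with library size only), 5 of 6 slow fibre markers fell (2 with library size only), and both tested erythroid markers fell under both scalings. The fast fibre markers counted 2 rising and 3 falling under each scaling. The summed fast fibre markers had a median of 65553 CPM in the pigs of low RIN and 44109 CPM in those of high RIN. The part of cell and fibre composition in the breed and RIN results of the members was not tested.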

How the data were processed

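Read pairs of psoas major mRNA had been trimmed with Trimmomatic 0.39, aligned with STAR 2.7.1a to Sscrofa11.1 and counted on Ensembl genes, and the deposited values are the authors' raw counts per gene, whole numbers without normalization. The unstranded column was used. Between 69.9 and 80.9% of a pig's pairs were counted on a gene. Breed, RIN, age, FCR and batch came from the labels, and no pig was left out. Symbols matched 14857 gene identifiers. UBE2F, UBE2G1, UBE2L3, UBE2N, UBE2U, USP26 and USP32 were not analysed here. Positions are those of RefSeq on the same build, matched by symbol for 80 of the 82 members.

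Genes were filtered with filterByExpr (minimum count 10, minimum total count 15, no group or design), scaled with TMM factors and fitted by quasi-likelihood in edgeR 4.0.16 (legacy mode, R 4.3.3). The model held batch as a factor beside breed, age, RIN and FCR. p-values were two-sided and adjusted by Benjamini-Hochberg over all 11146 genes tested. Interaction terms were added 1 at a time. The alternatives were DESeq2 1.42.0, limma 3.58.1 with voom and 12 changes of scaling, filter, covariates, pigs or counting. CPM used TMM library sizes, and within-batch values used log2(CPM + 0.01). No 2 of the 41 libraries agreed within counting noise. The fits were tested on simulated data. The precision of low counts is limited by counting error, which the models include with the spread between pigs.

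The members and lists were chosen with earlier results of these data known. Named were the called members with the smallest p per term and direction (8 for breed and RIN, 5 for age), the 5 per direction for FCR, the 3 per interaction, and members with a known role. 1 member and some genes of the lists were counted but are not reported here by name. The RIN and age limits for groups of pigs, the tables of relatives and of overlapping genes were set after the data were seen.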

Additional observations from a re-analysis of the deposited data

How the results depend on the processing

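No paired analysis was possible because the labels give the pigs no replicate numbers shared between the breeds. The limits are that breed was linked with age, FCR and RIN, that batches 1 to 5 held 1 to 4 Duroc pigs each, and that few pigs had low RIN. The counts of members called for breed, RIN, age, FCR and the interactions were within 1.5 times their values in the remaining alternatives. For breed, 26 became 15 without RIN in the model. For RIN, 45 became 0 in the Duroc pigs alone. For age, 3 became 6 with DESeq2 and with batch as a number (7.79% beside 7.30% of all genes), 1 without RIN, and 0 in the Landrace pigs alone, in the Duroc pigs alone and with library size only. For the RIN by breed term, 0 became 3 without the 2 pigs with RIN below 7, where USP14 was called (-0.73). With library size only the direction reversed for USP47 in breed (-0.0283), for UBE2Q1 (0.0605), UBE2QL1 (0.0440), UBE2V2 (0.13), USP5 (0.0820) and USP8 (0.0562) in RIN, and for USP19 in FCR (0.0194). In the Duroc pigs alone it reversed for UBE2QL1 (0.0049) and USP5 (0.0792) in RIN. With the summed stranded columns it reversed for USP14 in RIN (-0.0522) and RIN by breed (0.0266). Apart from the shift of all genes under library size, the cause of these changes was not tested. The edgeR calls shared with DESeq2 were 26 for breed, 44 for RIN and 3 for age, and with limma 25, 44 and 3. Depth limits the members under 2 CPM, 10 of the 77, most.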
